A study of Homo sapiens with 48 samples.

Results

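The SOX genes described here are 9 members of a family of transcription factor genes in human uveal melanoma cell lines: SOX10, SOX9, SOX8, SOX5, SOX6, SOX13, SOX4, SOX11 and SOX2. They were chosen by name, with earlier results of these data known, as members with a known place in the neural crest, melanocytes or stem cells, and they are 9 of the 58870 genes in the count files. RNA was sequenced from 48 libraries in 16 groups of 3. Uveal melanoma lines 92-1, MEL202 and MP41 each received FHT-1015, which inhibits SMARCA4 and SMARCA2, the alternative ATPases of the BAF chromatin remodelling complex, or the vehicle DMSO, for 4 or 24 h. Line 92-1 also received the protein kinase C inhibitor IDE196 for 4 or 24 h beside a DMSO set of its own. No group carries an engineered allele, each line stands for a single tumour, and the doses are not given in the sources used here. The labels call the 3 libraries of a group biological replicates without saying whether they came from separate cultures or days, so the p-values measure the spread between these libraries.

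SOX proteins bind DNA through an HMG box, which sits in the minor groove and bends the helix, at a core close to ACAAAG or ACAATG. The SoxE proteins SOX8, SOX9 and SOX10 carry activation domains: SOX10 sustains neural crest cells, Schwann cells and melanocytes, where it acts on MITF and pigment genes, and SOX9 directs cartilage and testis development. The SoxD proteins SOX5, SOX6 and SOX13 have no activation domain of that kind, dimerise through a coiled coil and modulate SoxE factors, as partners in cartilage and as antagonists in melanocytes. SOX4 and SOX11 are SoxC activators of progenitor cells, and SOX2 is the SoxB1 factor of pluripotent and neural stem cells.

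Between 11394088 and 32317711 reads were counted in genes per library. Levels are given as CPM, the reads of a gene over the library's total, scaled over the 48 libraries, or as CPM per kilobase of exon where genes are compared with each other. A count of 3 reads, the limit that a count of 0 allows, came to 0.0903 to 0.244 CPM, and intervals of this kind cover counting error only. Replicates spread more widely in some lines than in others, with a biological coefficient of variation of 0.294 for MEL202 and 0.217 for MP41 against 0.117 and 0.112 for the FHT-1015 and IDE196 experiments in 92-1. The fewest genes with a read, 17592, were in MEL202 FHT-1015 replicate 2 at 4 h. Marker genes went with the label of the lines: 10 melanocytic markers (among them PMEL, MLANA and TYR) summed to 2797 to 22915 CPM in the 48 libraries, against 0 to 6.21 CPM for 5 immune, 0 to 4.30 CPM for 4 endothelial, 2.84 to 43.4 CPM for 6 fibroblast, 0.267 to 25.0 CPM for 4 epithelial and 17.2 to 289 CPM for 4 glial markers.

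Among the members described here, SOX10 and SOX4 were the 2 most abundant transcripts in DMSO in every line. Further SOX genes were not ranked, among them SOX12, which held 51.3 to 207 CPM over all libraries. The places given below SOX10 and SOX4 are therefore places among these members only. On the scale of CPM per kilobase, the level in the 92-1 FHT-1015 experiment was 137 ± 20.0 (SD, n = 6 libraries, both times) for SOX10 and 120 ± 18.2 for SOX4, and their ranges overlapped. SOX6 followed at 15.5 ± 1.17 and SOX8 at 6.69 ± 1.48, with SOX5 at 4.58 ± 0.487 overlapping SOX8. SOX9 at 1.19 ± 0.266 and SOX13 at 1.07 ± 0.12 overlapped each other, SOX2 reached 0.175 ± 0.0817 from 2 to 10 reads, and SOX11 had 0 to 2 reads in each library.

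Among the same members, MEL202 and MP41 had the same leading pair and another order beneath it. In MEL202 the per-kilobase level was 150 ± 28.4 for SOX10 and 97.5 ± 16.5 for SOX4, with overlapping ranges, and SOX8 came next at 18.4 ± 1.74, above every library of SOX6 (6.12 ± 2.2). SOX13 (5.5 ± 0.824) and SOX9 (4.94 ± 0.69) overlapped SOX6 or each other, SOX5 stood at 2.01 ± 0.782, and SOX11 (0.385 ± 0.168) and SOX2 (0.382 ± 0.121) were not told apart. In MP41 the ranges of SOX10 (211 ± 127) and SOX4 (43.9 ± 4.39) did not overlap, and SOX6, SOX13, SOX9 and SOX8 formed a chain of overlapping neighbours from 4.22 ± 0.54 down to 2.18 ± 0.496. SOX5 was at 0.621 ± 0.115 in MP41, and SOX11 and SOX2 had at most 2 reads and 1 read in any DMSO library.

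**Figure D1:**
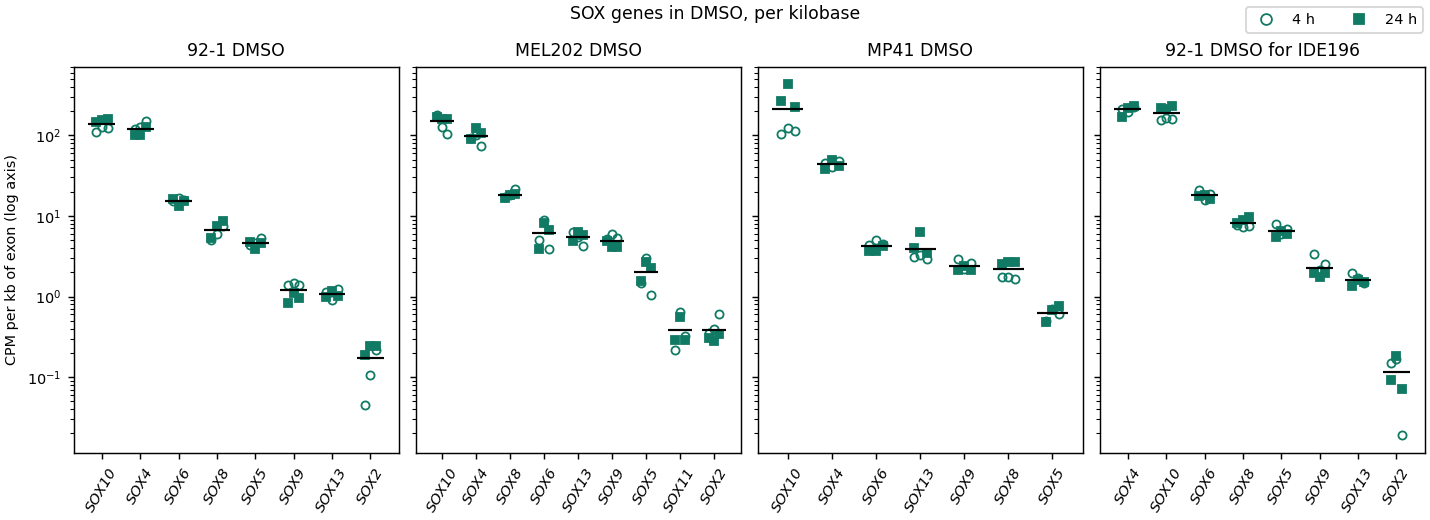
SOX levels in DMSO libraries of each line and of both 92-1 DMSO sets, as CPM per kilobase of exon on a log axis. Circles are 4 h and squares 24 h libraries, black lines are means over 6 libraries, and members with no DMSO library above 3 reads are left out. SOX10 and SOX4 lie above all other members in each panel.

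In the second DMSO set of 92-1, made for the IDE196 experiment, the mean of SOX4 was above that of SOX10, though not beyond their spread. Its per-kilobase level was 210 ± 22.8 (SD, n = 6) against 191 ± 35.1 for SOX10, with overlapping ranges, and the other members kept the order of the first set. The order depends on the length used: per kilobase of the longest annotated transcript, SOX10 (246 ± 45.3) came before SOX4 (210 ± 22.8), SOX5 (9.68 ± 1.27) before SOX8 (8.8 ± 0.978) and SOX13 (3.3 ± 0.457) before SOX9 (2.29 ± 0.594), each pair with overlapping ranges. In a fit of the 24 DMSO libraries, 6 of 9 members were called between the 2 sets of the same line, all higher in the IDE196 set, where 39.1% of all genes tested were called and 19.5% were higher. The differences ran from 0.34 (SE 0.12) for SOX8 to 0.98 (SE 0.13) for SOX9 on the log2 scale of CPM, with SOX4 0.85 (SE 0.11) higher. What differs between the sets besides the replicate numbers is not given in the sources used here, and the same line thus differed from itself by these amounts. Markers of other cell types differed between the sets too: the 4 epithelial markers summed to 2.42 to 18.5 CPM in the IDE196 set and 0.682 to 1.78 CPM in the other, with KRT5 at 0.186 to 8.62 against 0 to 0.0614 CPM, and the 6 fibroblast markers to 7.97 to 33.7 against 2.84 to 5.29 CPM. Their part in the SOX differences was not tested. Leaving out 1 library ended the call for SOX8 in 7 of the 24 fits (0.25 to 0.35, adjusted p from 0.0514 to 0.105) and for SOX5 in 4 of 24 (0.48 to 0.51, 0.0504 to 0.0604).

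Between lines, most members differed in DMSO, in directions that varied from gene to gene. In the same fit, 8 of 9 members were called between MEL202 and 92-1 (55.4% of all genes), 8 of 9 between MP41 and 92-1 (67.3%) and 9 of 9 between MP41 and MEL202 (58.3%). SOX13 was higher than in 92-1 by 2.39 (SE 0.15) in MEL202 and by 1.85 (SE 0.15) in MP41, on the log2 scale of CPM. SOX5 and SOX6 went the other way: SOX5 was lower than in 92-1 by -1.18 (SE 0.19) in MEL202 and -2.85 (SE 0.20) in MP41, and SOX6 by -1.32 (SE 0.16) and -1.85 (SE 0.17). SOX8 was 1.49 (SE 0.12) above 92-1 in MEL202 and -1.62 (SE 0.13) from it in MP41, so the MP41 to MEL202 difference was -3.10 (SE 0.13). SOX9 exceeded 92-1 by 2.09 (SE 0.13) in MEL202 and 1.06 (SE 0.13) in MP41. SOX4 was lower in MP41 than in 92-1 by -1.41 (SE 0.12), and by -2.26 when the IDE196 DMSO set stood for 92-1. SOX2, at 2 to 10 reads a DMSO library in 92-1 and 12 to 29 in MEL202, had 1 read over the 6 MP41 libraries and was called lower there against both, with no fold given.

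SOX10 differed little between lines when both DMSO times were pooled, but MP41 was higher at 24 h than MEL202 and the first 92-1 set. At 4 h its mean was 443 CPM in 92-1, 507 in MEL202 and 417 in MP41, and at 24 h 570 in 92-1, 605 in MEL202 and 1145 in MP41, where the MP41 libraries lay above all others of these groups, and the line differences were not tested at each time. The IDE196 DMSO set of 92-1 overlapped MP41 at 24 h, at 797 to 864 CPM against 843 to 1597 CPM. Over both times MEL202 differed from 92-1 by 0.17 (SE 0.14, adjusted p = 0.307) and MP41 by 0.49 (SE 0.14, adjusted p = 0.00286) on the log2 scale of CPM, and the latter difference was -0.023 (adjusted p = 0.898) when the IDE196 DMSO set stood for 92-1. With that set the SOX9 difference of MP41 also dropped to 0.08 (adjusted p = 0.579) and that of MEL202 to 1.11 (adjusted p = 8.36e-08), and the SOX13 differences to 1.24 in MP41 and 1.77 in MEL202. The SOX10 difference between MP41 and MEL202 (0.32, adjusted p = 0.0451) lost its call in 19 of 24 fits that left out 1 library (0.17 to 0.33, adjusted p 0.0513 to 0.214), and the lower SOX4 of MEL202 (-0.27, adjusted p = 0.0458) in 14 of 24 (-0.29 to -0.21, 0.0511 to 0.146). With the IDE196 set as 92-1, that SOX4 difference was -1.12 (adjusted p = 1.84e-08). SOX2, higher in MEL202 than in 92-1 by 1.19 (SE 0.41), lost its call without replicate 1 of 92-1 DMSO at 4 h (0.99, adjusted p = 0.0607). SOX11 was called in MEL202 against both other lines, whose DMSO libraries held at most 2 reads, so no fold is given.

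SOX10 (ENSG00000100146.17, chr22:37970686-37987422 on the minus strand of GRCh38, 6 merged exons) lost nearly all of its RNA within 4 h of FHT-1015 in 92-1. DMSO libraries at 4 h held 405, 465 and 459 CPM, and treated ones 13.7, 12 and 18.7 CPM. At 24 h the values were 539, 582 and 588 CPM in DMSO and 23.4, 24.8 and 19.3 CPM with FHT-1015. No treated library came near a DMSO library at either time, and the log2 fold change was -4.94 (SE 0.15, adjusted p = 2.34e-11) at 4 h and -4.69 (SE 0.15, adjusted p = 3.14e-12) at 24 h. The 24 h effect was not distinguishable from the 4 h effect (difference 0.25, SE 0.19, adjusted p = 0.307). In bulk RNA, fewer cells expressing a gene and less RNA per cell cannot be told apart.

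In MEL202 and MP41 the fall of SOX10 was smaller at 4 h and went on to 24 h. MEL202 held 663, 476 and 383 CPM in DMSO at 4 h and 57.1, 79.1 and 50.4 CPM with FHT-1015, then 619, 599 and 595 CPM against 13.5, 12.9 and 14.9 CPM at 24 h. MP41 held 384, 452 and 416 CPM against 73.8, 101 and 86.5 CPM at 4 h, and 995, 1597 and 843 CPM against 35.5, 41.7 and 45.2 CPM at 24 h. Treated and DMSO libraries were separate in every case. In MEL202 the log2 fold change was -3.04 (SE 0.25) at 4 h and -5.43 (SE 0.28) at 24 h, in MP41 -2.26 (SE 0.20) and -4.74 (SE 0.22), and the effect at 24 h exceeded that at 4 h by -2.40 (SE 0.34, adjusted p = 0.00113) and -2.47 (SE 0.28, adjusted p = 7.2e-05). The MP41 DMSO level itself was higher at 24 h than at 4 h by 1.36 (SE 0.19, adjusted p = 0.00704), a call lost without replicate 1 or 3 of MP41 DMSO at 4 h (adjusted p from 0.055 to 0.0669). In a fit of the 6 MEL202 libraries at 4 h alone, with fewer libraries to estimate the spread, the SOX10 change was -3.02 (adjusted p = 0.0788).

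IDE196 moved SOX10 the other way, and later. With IDE196 at 4 h, 92-1 held 665, 660.4 and 676 CPM against 569.7, 612 and 596 CPM in its DMSO set, and at 24 h 1423, 1358 and 1290.5 CPM against 816, 797 and 864 CPM. Libraries of both groups were separate at each time, yet only the 24 h difference of 0.67 (SE 0.08, adjusted p = 1.22e-06) passed, that at 4 h being 0.16 (SE 0.08, adjusted p = 0.182). The DMSO set itself was 0.49 (SE 0.08, adjusted p = 0.00988) higher at 24 h than at 4 h, a call lost without replicate 6 of DMSO at 4 h or replicates 4 or 6 at 24 h (0.46 to 0.50, adjusted p 0.0522 to 0.0732).

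SOX9 (ENSG00000125398.7, chr17:72121020-72126420, plus strand, 3 merged exons), the cartilage SoxE factor, rose with FHT-1015 at 24 h in all 3 lines while SOX10 was down. In 92-1 it stood at 5.51, 5.75 and 5.53 CPM in DMSO and 6.98, 6.96 and 5.55 CPM with FHT-1015 at 4 h, then at 3.29, 4.36 and 3.75 against 8.01, 9.85 and 8.80 CPM at 24 h. MEL202 gave 20.3, 23.3 and 20.9 against 12.8, 16.6 and 8.01 CPM at 4 h, and 19.5, 16.3 and 16.4 against 28.2, 35.1 and 33.2 CPM at 24 h. MP41 gave 11.6, 8.61 and 10.4 against 10.8, 10.1 and 7.51 CPM at 4 h, and 8.43, 9.33 and 8.43 against 37.2, 44.7 and 36.2 CPM at 24 h. At 24 h all treated libraries were above all DMSO libraries, whereas at 4 h MEL202 lay below its DMSO libraries and MP41 overlapped them. The 24 h log2 fold change was 1.21 (SE 0.16, adjusted p = 1.25e-05) in 92-1, 0.91 (SE 0.25, adjusted p = 0.0195) in MEL202 and 2.23 (SE 0.19, adjusted p = 1.87e-06) in MP41, and no 4 h change passed (0.20, -0.79 and -0.11, adjusted p = 0.383, 0.244 and 1). The MEL202 call was lost without replicate 2 or 3 of DMSO or of FHT-1015 at 24 h (0.84 to 0.89, adjusted p 0.0689 to 0.0827). The 24 h effect on SOX9 exceeded the 4 h effect by 1.01 (SE 0.23), 1.70 (SE 0.35) and 2.35 (SE 0.26) in 92-1, MEL202 and MP41. The DMSO mean was lower at 24 h than at 4 h in each line, without a call. In 92-1 it went from 5.60 to 3.80 CPM, and the treated mean from 6.50 to 8.89 CPM.

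Under IDE196, SOX9 in 92-1 read 10.9, 6.84 and 7.42 CPM against 13.2, 8.30 and 10.1 CPM in DMSO at 4 h, groups that overlapped. At 24 h it read 16, 11.6 and 10 against 7.69, 6.91 and 7.75 CPM, with all IDE196 libraries higher. The change of 0.70 (SE 0.21, adjusted p = 0.00729) rested in part on replicate 1, without which it was 0.48 (adjusted p = 0.0669). SOX9 therefore was higher at 24 h under both drugs in 92-1, and the difference between the 2 effects was 0.50 (SE 0.28, adjusted p = 0.182).

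SOX8 (ENSG00000005513.10, chr16:981808-986979, plus strand, 2 merged exons), the third SoxE gene and one that overlaps SOX10 in neural crest function, fell with FHT-1015. In 92-1 it went from 22.0, 26.6 and 33.6 CPM in DMSO to 7.02, 7.37 and 10.5 CPM at 4 h, and from 23.6, 33.3 and 38.6 to 7.18, 7.74 and 7.66 CPM at 24 h. MEL202 went from 75.7, 81.7 and 95.4 to 22.4, 43.2 and 30 CPM, and from 73.3, 80.2 and 82.7 to 27.6, 33.4 and 40.5 CPM. MP41 had 7.72, 7.83 and 7.40 against 6.87, 5.96 and 6.25 CPM at 4 h, and 11.3, 11.9 and 11.7 against 5.78, 6.22 and 5.30 CPM at 24 h. Treated libraries were below DMSO libraries at both times in the 3 lines, with the smallest gap in MP41 at 4 h. The log2 fold changes were -1.76 (SE 0.20) and -2.10 (SE 0.21) at 4 and 24 h in 92-1, -1.40 (SE 0.25) and -1.20 (SE 0.25) in MEL202, and -0.27 (SE 0.16, adjusted p = 1) and -0.95 (SE 0.16, adjusted p = 0.000468) in MP41. The 4 h call in MEL202 (adjusted p = 0.0212) was lost without replicate 3 of DMSO or replicates 1 or 3 of FHT-1015 at 4 h (-1.35 to -1.19, adjusted p 0.0556 to 0.1).

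With IDE196, SOX8 first fell and then rose. At 4 h it held 24.8, 23.2 and 25.1 CPM against 34.6, 32.3 and 33.6 CPM in DMSO, a change of -0.47 (SE 0.09, adjusted p = 0.00166). At 24 h it held 55.1, 53.7 and 50.7 against 36.3, 39.2 and 43.3 CPM, a change of 0.38 (SE 0.09, adjusted p = 0.00148). The groups did not overlap at either time, and the effects at the 2 times differed by 0.85 (SE 0.13, adjusted p = 8.8e-05). In the fit of all 48 libraries, which pools the wider spread of MEL202 and MP41, both calls were lost (-0.46, adjusted p = 0.148; 0.43, adjusted p = 0.0504).

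**Figure D2:**
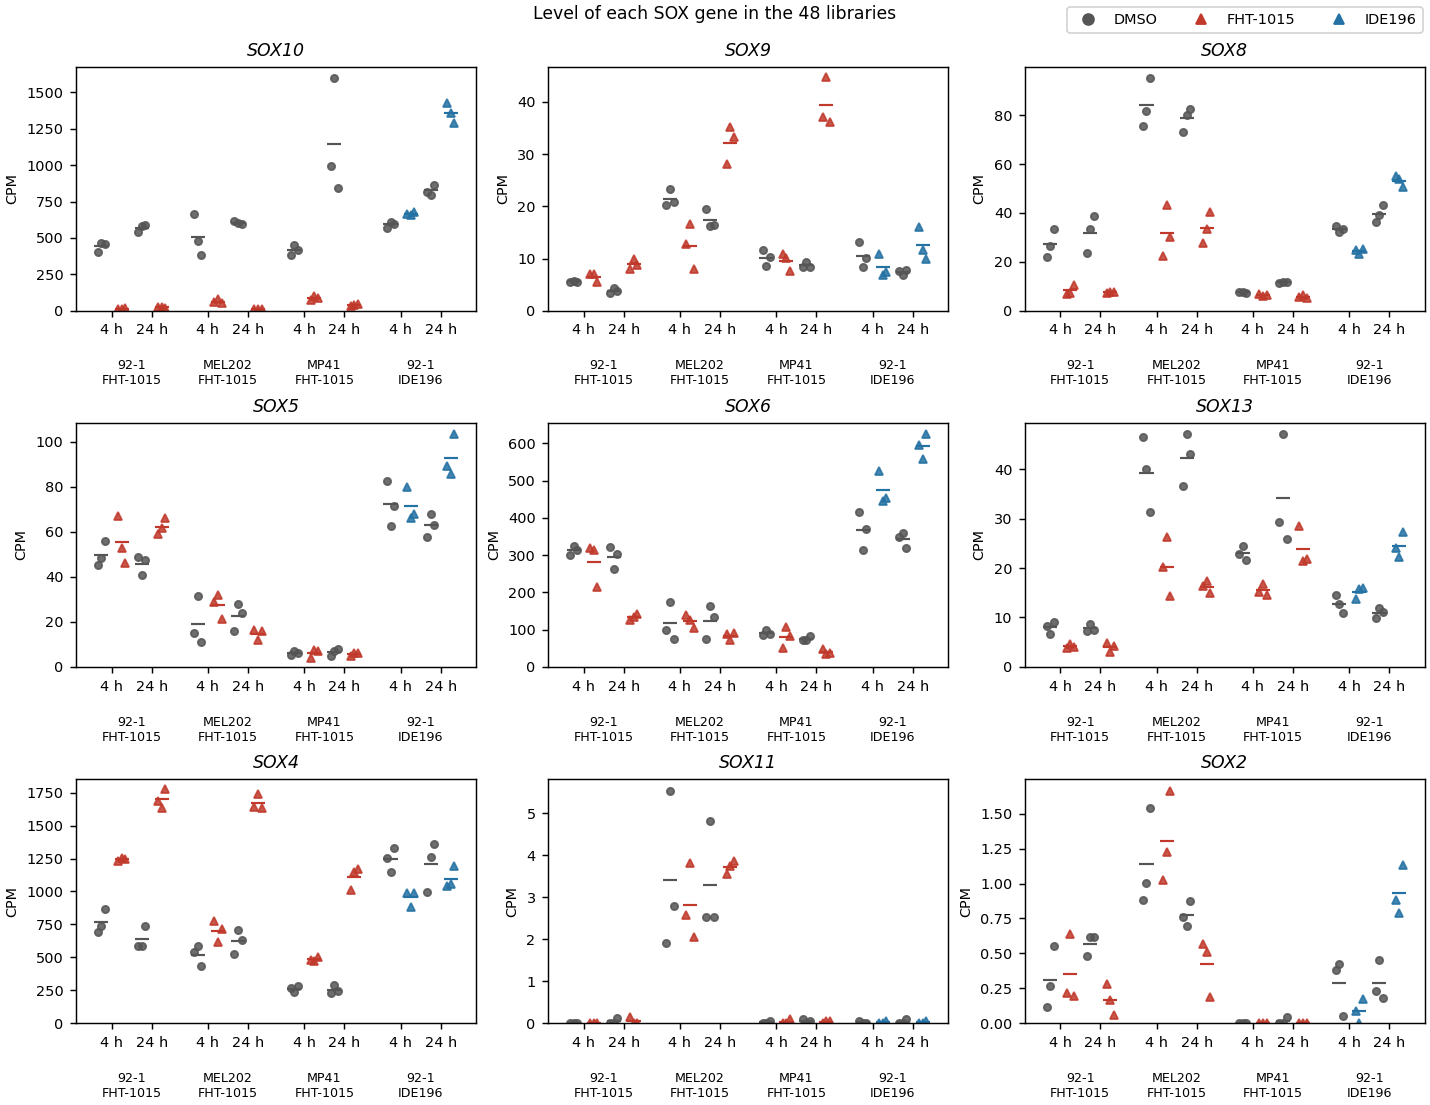
CPM of each of the 9 SOX genes in each of the 48 libraries, by line, drug and time, 1 panel a gene. Points are libraries and bars are group means. SOX10 sits near the bottom of its panel in all FHT-1015 groups, while SOX4 reaches its highest values there at 24 h.

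SOX6 (ENSG00000110693.17, chr11:15966449-16739591, minus strand, 37 merged exons) had the highest mean SoxD level per kilobase in each line. It was called lower with FHT-1015 at 24 h, and not at 4 h, in 92-1 and MP41. In 92-1 at 4 h the DMSO libraries held 300.2, 326 and 313 CPM and the treated ones 319, 313 and 216 CPM, which overlapped. At 24 h they held 321, 262 and 302 against 127, 134 and 142 CPM, which did not. MP41 moved from 85.4, 99.2 and 87.8 against 51.4, 107 and 83.0 CPM at 4 h to 71.6, 71.1 and 82.6 against 46.8, 34.9 and 37.7 CPM at 24 h. The 24 h log2 fold change was -1.16 (SE 0.12, adjusted p = 7.69e-07) in 92-1 and -0.86 (SE 0.22, adjusted p = 0.00857) in MP41, after -0.17 and -0.18 at 4 h (adjusted p = 0.31 and 1). In 92-1 the step between the times was itself called, at -0.99 (SE 0.17, adjusted p = 0.000223), and in MP41 it was not called.

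MEL202 gave no called change in SOX6. Its libraries spread widely, at 99.1, 175 and 76.0 CPM in DMSO and 139, 126 and 103 CPM with FHT-1015 at 4 h, and at 75.9, 162 and 133 against 87.3, 71.9 and 90.5 CPM at 24 h. Groups overlapped at both times, and the 24 h change was -0.55 (SE 0.31, adjusted p = 0.247). IDE196 raised SOX6 in 92-1, from 417, 313 and 369 to 526, 445 and 453 CPM at 4 h and from 347, 359.6 and 319 to 595, 559 and 625 CPM at 24 h. Libraries were separate at both times, with log2 fold changes of 0.37 (SE 0.10, adjusted p = 0.0184) and 0.75 (SE 0.10, adjusted p = 7e-06). The 4 h call was lost without replicate 5 or 6 of DMSO or replicate 1 of IDE196 at 4 h (0.27 to 0.36, adjusted p 0.0646 to 0.109).

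SOX5 (ENSG00000134532.17, chr12:23529500-24562544, minus strand, 30 merged exons) is the closest relative of SOX6. Its estimated changes were smaller than those of SOX6 in 92-1 and MP41 but not in MEL202, which was not tested. In 92-1 it read 45.2, 48.4 and 56.1 CPM in DMSO and 67.0, 52.9 and 46.1 CPM with FHT-1015 at 4 h, and 49.0, 40.7 and 47.5 against 59.1, 61.6 and 66.1 CPM at 24 h. The 4 h groups overlapped, and the 24 h groups were separate with SOX5 higher by 0.42 (SE 0.12, adjusted p = 0.00797), opposite in sign to SOX6. That call was lost in the fit of all 48 libraries (0.45, adjusted p = 0.147). In MEL202 SOX5 ranged from 10.8 to 31.7 CPM over the 12 libraries and in MP41 from 4.15 to 8.07 CPM, and treated and DMSO libraries overlapped at both times in both lines. The MEL202 change was 0.51 (SE 0.34, adjusted p = 0.777) at 4 h and -0.60 (SE 0.34, adjusted p = 0.255) at 24 h, and the MP41 change 0.03 (SE 0.25) and -0.19 (SE 0.25). The fit of the 6 libraries compared called the MEL202 change at 24 h (-0.61, adjusted p = 0.0455 by edgeR). IDE196 left SOX5 at 80.1, 66.3 and 67.8 CPM against 82.8, 62.4 and 71.5 CPM at 4 h, and took it to 89.3, 85.5 and 103 against 57.6, 67.9 and 63.1 CPM at 24 h. That rise of 0.51 (SE 0.11, adjusted p = 0.000763) had no overlap between groups, and its adjusted p was 0.0606 in the fit of all 48 libraries.

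SOX13 (ENSG00000143842.15, chr1:204073115-204127743, plus strand, 16 merged exons), a SoxD gene best known from T cell lineages, fell early in 92-1. It held 8.35, 6.72 and 9.10 CPM in DMSO against 3.86, 4.69 and 3.94 CPM with FHT-1015 at 4 h, and 7.30, 8.60 and 7.56 against 4.81, 3.09 and 4.13 CPM at 24 h. MEL202 held 46.5, 40.1 and 31.3 against 20.2, 26.2 and 14.4 CPM at 4 h, and 36.6, 47.2 and 43.1 against 16.4, 17.4 and 14.9 CPM at 24 h. MP41 held 22.9, 24.6 and 21.6 against 15.1, 16.8 and 14.5 CPM, and 29.4, 47.1 and 25.8 against 28.6, 21.3 and 21.9 CPM. Treated libraries lay below DMSO libraries throughout, except in MP41 at 24 h, where they overlapped. The log2 fold change was -0.97 at both times in 92-1 (SE 0.18 and 0.19, adjusted p = 0.0008 and 0.000324), -0.96 (SE 0.24, adjusted p = 0.111) and -1.36 (SE 0.24, adjusted p = 0.00161) in MEL202, and -0.57 (SE 0.20, adjusted p = 0.521) and -0.43 (SE 0.20, adjusted p = 0.105) in MP41. The MEL202 change at 4 h was called without replicate 2 of FHT-1015 (-1.22, adjusted p = 0.0288), and that of MP41 at 24 h without replicate 3 of DMSO (-0.65, adjusted p = 0.00932). DESeq2 called the MEL202 change at 4 h (-0.95, adjusted p = 0.0171), and the fit of the 6 libraries compared called that of MP41 at 4 h (-0.58, adjusted p = 0.023).

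IDE196 gave SOX13 its rise at 24 h only. It held 13.7, 15.7 and 16 CPM against 14.6, 12.8 and 10.9 CPM in DMSO at 4 h, overlapping, and 24.0, 22.3 and 27.3 against 9.93, 11.8 and 11.1 CPM at 24 h, separate. The log2 fold change was 0.24 (SE 0.13, adjusted p = 0.246) and 1.11 (SE 0.13, adjusted p = 1.1e-06), the difference between the times being 0.87 (SE 0.18, adjusted p = 0.00151).

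RefSeq's promoter table (GRCh38.p14, 250 bases before each gene's start) holds 5 of the 9 members: SOX13, SOX2, SOX4, SOX5 and SOX6. The stretches of SOX13, SOX5 and SOX2 that lie outside annotated exons are printed, 5′ to 3′, to show where the letters of the family's own binding core occur beside the starts of 2 SoxD genes and of SOX2. The search was for ACAAAG and ACAATG on both strands, printed in capitals, where CTTTGT and CATTGT are the same letters read from the other strand.
SOX13 (chr1:204072865-204073114, plus strand, 250 bases): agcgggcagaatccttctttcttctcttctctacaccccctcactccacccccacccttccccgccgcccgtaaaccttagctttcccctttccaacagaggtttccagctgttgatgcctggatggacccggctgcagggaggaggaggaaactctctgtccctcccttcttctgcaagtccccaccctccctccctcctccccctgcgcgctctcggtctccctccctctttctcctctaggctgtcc
SOX5 (chr12:24562545-24562741, minus strand, 197 bases): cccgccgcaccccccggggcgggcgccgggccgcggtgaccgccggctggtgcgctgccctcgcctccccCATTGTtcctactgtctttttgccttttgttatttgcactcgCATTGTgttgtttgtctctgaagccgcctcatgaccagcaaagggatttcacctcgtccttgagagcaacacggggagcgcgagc
SOX2 (chr3:181711675-181711923, plus strand, 249 bases): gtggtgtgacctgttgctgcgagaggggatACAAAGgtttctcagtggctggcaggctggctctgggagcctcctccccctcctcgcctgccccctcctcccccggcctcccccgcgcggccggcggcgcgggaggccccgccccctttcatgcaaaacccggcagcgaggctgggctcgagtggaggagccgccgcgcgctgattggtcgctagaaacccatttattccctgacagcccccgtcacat
The SOX13 stretch holds no match, that of SOX5 holds 2 and that of SOX2 holds 1. Not printed are the window of SOX4, with 0 matches, which lies in its annotated exon, and the 5 windows of SOX6, each at another start, of which 3 hold 0 matches and the others 1 and 3. Of the 35116 promoter windows of 250 bases in the table, 21.2% hold at least 1 match, so such a match is common. A match describes the letters and no binding was measured.

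SOX4 (ENSG00000124766.6, chr6:21592768-21598619, plus strand, 1 exon), a SoxC activator often raised in tumours and in cells losing epithelial traits, rose with FHT-1015 in each line as SOX10 fell. In 92-1 it went from 692, 736 and 870.1 CPM in DMSO to 1231, 1256 and 1245 CPM at 4 h, and from 585, 589.5 and 734 to 1691, 1638 and 1777 CPM at 24 h. MEL202 went from 539.8, 588 and 430.5 to 772, 617 and 713 CPM, and from 522, 711 and 632 to 1642, 1743 and 1632 CPM. MP41 went from 264, 236 and 281 to 480.0, 471 and 505 CPM, and from 225, 289.6 and 246 to 1009, 1149 and 1168 CPM. All treated libraries were above all DMSO libraries of the same experiment and time. Those of 92-1 at 4 h overlapped the IDE196 DMSO set of that line, which held 1149 to 1328 CPM. The log2 fold change at 4 and 24 h was 0.68 (SE 0.10, adjusted p = 0.000162) and 1.40 (SE 0.11, adjusted p = 2.19e-08) in 92-1. It was 0.42 (SE 0.18, adjusted p = 0.541) and 1.45 (SE 0.19, adjusted p = 0.000155) in MEL202, and 0.90 (SE 0.13, adjusted p = 0.00747) and 2.19 (SE 0.13, adjusted p = 1.24e-07) in MP41. The MP41 call at 4 h was lost without replicate 1 or 2 of DMSO or replicate 1 or 3 of FHT-1015 (0.83 to 0.91, adjusted p 0.0519 to 0.0777).

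The growth of the SOX4 response from 4 to 24 h was called in the 3 lines, at 0.72 (SE 0.15, adjusted p = 0.00097) in 92-1, 1.03 (SE 0.26, adjusted p = 0.031) in MEL202 and 1.30 (SE 0.18, adjusted p = 0.000282) in MP41. In MEL202 it kept its call only without replicate 1 or 3 of DMSO at 4 h, replicate 2 of DMSO at 24 h or replicate 2 of FHT-1015 at 4 h, and lost it without any other single library (0.92 to 1.09, adjusted p 0.0524 to 0.0972) or with no filter on low counts (1.02, adjusted p = 0.117). IDE196 did not raise SOX4: it held 991, 883 and 992 CPM against 1258, 1149 and 1328 CPM in DMSO at 4 h, and 1043, 1059 and 1190.0 against 999, 1266 and 1360.3 CPM at 24 h. The 4 h libraries were separate and lower by -0.39 (SE 0.11, adjusted p = 0.0188), a call lost without replicate 6 of DMSO or replicate 2 of IDE196 at 4 h (-0.35 and -0.34, adjusted p 0.0712 and 0.0894). The 24 h groups overlapped (-0.19, SE 0.11, adjusted p = 0.147), and the difference was called without replicate 4 of DMSO at 24 h (-0.31, adjusted p = 0.016).

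SOX11 (ENSG00000176887.7, chr2:5692667-5701385, plus strand, 1 exon), the other SoxC gene measured, was seen in MEL202 alone above 3 reads. Its DMSO libraries there held 1.91, 5.54 and 2.80 CPM at 4 h and 2.52, 4.83 and 2.53 CPM at 24 h, from 41 to 94 reads. With FHT-1015 it held 2.57, 3.81 and 2.04 CPM and 3.55, 3.75 and 3.86 CPM. The groups overlapped at both times, and the changes were -0.27 (SE 0.41, adjusted p = 0.944) and 0.21 (SE 0.40, adjusted p = 0.774). In MEL202 SOX4 thus changed at 24 h and SOX11 was not detectably moved, a difference that was not tested.

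SOX2 (ENSG00000181449.4, chr3:181711924-181714436, plus strand, 1 exon) had few reads. In 92-1 the FHT-1015 experiment counted 2, 5 and 9 reads in DMSO and 5, 14 and 3 with the drug at 4 h, then 10, 10 and 10 against 4, 2 and 1 at 24 h. The 24 h change of -1.77 (SE 0.69, adjusted p = 0.0362) rests on those few reads and lost its call without replicate 2 or 3 of DMSO or of FHT-1015 at 24 h (-1.77 to -1.31, adjusted p 0.0742 to 0.151), as with DESeq2 (adjusted p = 0.0886) and in the fit of all 48 libraries (adjusted p = 0.0584). Under IDE196 it had 2, 0 and 3 reads against 8, 10 and 1 at 4 h, and 19, 15 and 19 against 5, 9 and 4 at 24 h, a rise of 1.63 (SE 0.60, adjusted p = 0.027) that failed without replicate 4 or 6 of DMSO or replicate 1 or 3 of IDE196 at 24 h (1.38 to 1.67, adjusted p 0.061 to 0.116) and with DESeq2 (adjusted p = 0.0637). MEL202 held 19, 17 and 27 reads in DMSO at 4 h and had no called change at 4 or 24 h (0.18, SE 0.49 and -0.86, SE 0.52). MP41 had 1 read in 1 DMSO library and 0 in the others.

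Counted over the family, FHT-1015 changed 4 of the 8 members tested in 92-1 at 4 h, 1 higher and 3 lower, where 29.5% of all genes tested were called. At 24 h it changed 8 of 8 (3 higher, 5 lower) beside 60.6% of all genes. In MEL202, 2 of 9 were called at 4 h (both lower) beside 0.679%, of which 0.522% lower, and 5 of 9 at 24 h (2 higher, 3 lower) beside 18.8%. In MP41, 2 of 7 were called at 4 h (1 higher, 1 lower) beside 0.225%, and 5 of 7 at 24 h (2 higher, 3 lower) beside 36.1%. The directions were alike across lines for the members called in each at 24 h: SOX10 and SOX8 lower, SOX9 and SOX4 higher. IDE196 changed 3 of 8 at 4 h (1 higher, 2 lower) beside 16.2%, and 7 of 8 at 24 h, all higher, beside 58.1%, of which 28.7% higher. The calls at 24 h in 92-1 thus come from comparisons in which most genes passed. The fit of all 48 libraries also called SOX13 (adjusted p = 0.0011) and SOX9 (adjusted p = 0.0143) lower in MEL202 at 4 h, SOX5 (0.0479) and SOX6 (0.0483) lower there at 24 h and SOX13 (0.033) lower in MP41 at 24 h, while with IDE196 at 4 h it lost SOX6 (0.507) and SOX4 (0.0973).

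**Figure D3:**
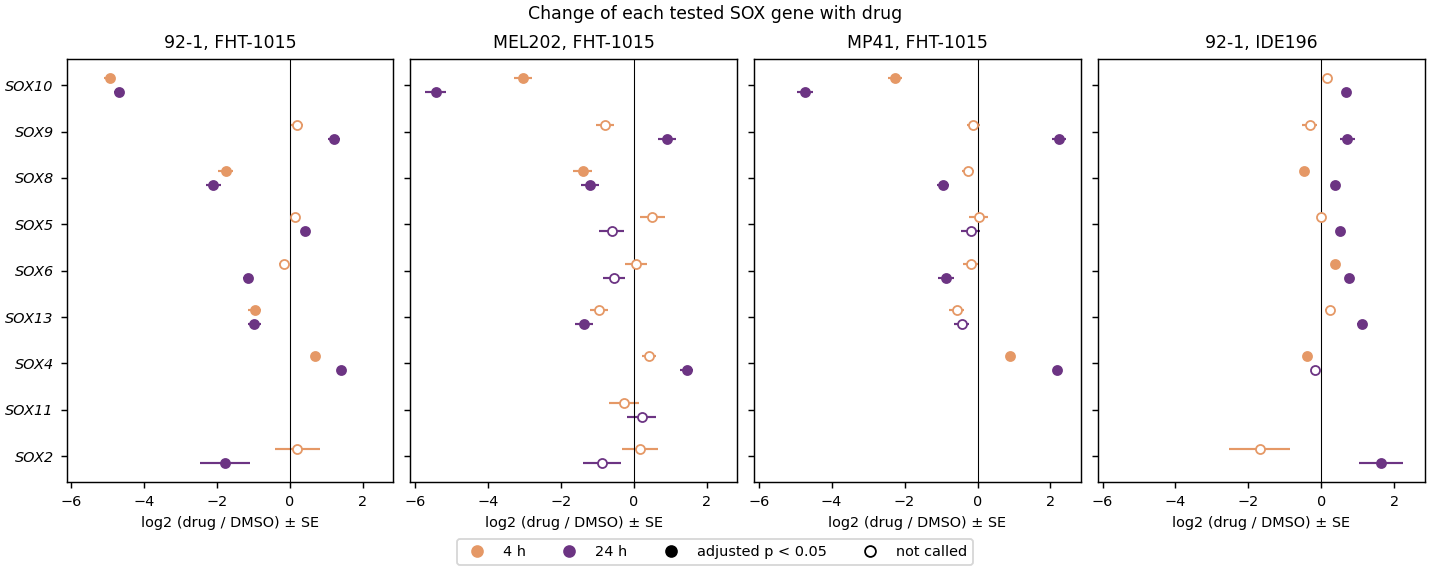
Log2 fold change of each SOX gene, drug over its own DMSO, at 4 h and 24 h in each experiment, with standard errors. Filled points have an adjusted p under 0.05 by edgeR's quasi-likelihood test. SOX10 lies between -2.26 and -5.43 with FHT-1015 and SOX4 above 0, while with IDE196 at 24 h the points lie above 0 for the members other than SOX4.

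Whether the lines responded to FHT-1015 to different degrees was tested directly. At 4 h, 2 of 9 members differed, beside 1.38% of all genes: SOX10 (adjusted p = 1.89e-06) and SOX8 (adjusted p = 0.00876). The SOX10 fall in 92-1 exceeded that of MEL202 by 1.88 (SE 0.29, adjusted p = 0.000325) and that of MP41 by 2.66 (SE 0.29, adjusted p = 7.68e-07), while MP41 and MEL202 were not told apart (0.78, SE 0.28, adjusted p = 0.611). For SOX8, the fall in MP41 was smaller than in 92-1 by 1.47 (SE 0.30, adjusted p = 0.00395), while MEL202 was told apart neither from 92-1 (0.33, SE 0.28, adjusted p = 0.772) nor from MP41 (1.14, SE 0.29, adjusted p = 0.258). These 3 pairwise tests called 0.636%, 1.58% and 0.0163% of all genes. By 24 h the lines no longer differed detectably in SOX10 (adjusted p = 0.123). At 24 h 3 of 9 differed, beside 12% of all genes: SOX9 (adjusted p = 0.00296), SOX4 (adjusted p = 0.0141) and SOX8 (adjusted p = 0.0267). MP41 had the larger rises, by 1.27 for SOX9 and 0.69 for SOX4 over MEL202 and by 0.93 and 0.70 over 92-1, and its SOX8 fall was smaller than that of 92-1 by 1.05. MP41 differed at 24 h from MEL202 in 5.53% and from 92-1 in 8.47% of all genes, and MEL202 from 92-1 in 5.35%. The SOX8 call was lost without replicate 2 or 3 of 92-1 DMSO or any of the 3 replicates of 92-1 FHT-1015 at 24 h (adjusted p 0.0588 to 0.116) and with limma-voom (adjusted p = 0.0737), and the SOX4 call without replicate 1 of MP41 DMSO at 24 h (adjusted p = 0.0631) or with no filter (adjusted p = 0.0549). Without replicate 2 of MP41 DMSO at 24 h, the library with the highest SOX10 level, 5 members differed.

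Within 92-1 the effects of both drugs were set against each other, each over its own DMSO set. The doses are not given, so this compares the treatments as applied. At 4 h, 5 of 8 members differed, beside 24.6% of all genes, and at 24 h 6 of 8, beside 33%. FHT-1015 minus IDE196 was -5.11 (SE 0.16) for SOX10, -1.30 (SE 0.23) for SOX8, -1.21 (SE 0.22) for SOX13 and 1.06 (SE 0.16) for SOX4 at 4 h. At 24 h it was -5.36 (SE 0.16), -2.48 (SE 0.23), -2.08 (SE 0.22) and 1.58 (SE 0.16) for the same genes and -1.91 (SE 0.16) for SOX6. The sixth was SOX2 (-3.41, SE 0.96, adjusted p = 0.00681), which rests on 1 to 19 reads a library at that time. The SOX6 difference at 4 h (-0.54, adjusted p = 0.0147) was lost without replicate 3 of FHT-1015, replicate 5 of the IDE196 DMSO set or replicate 1 of IDE196 at 4 h (-0.46 to -0.38, adjusted p 0.0566 to 0.061). SOX9 and SOX5 were called at 24 h under each drug, and the drug effects on them were not told apart (0.50, SE 0.28, adjusted p = 0.182 and -0.09, SE 0.17, adjusted p = 0.747).

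The effect of time was called for 3 of 8 members in 92-1 with FHT-1015 (45.5% of all genes), 3 of 9 in MEL202 (6.89%), 3 of 7 in MP41 (18.6%) and 6 of 8 with IDE196 (30.7%). SOX9 and SOX4 gained between 4 and 24 h of FHT-1015 in each line. DMSO culture alone moved few members from 4 to 24 h: 0 of 8 in 92-1 (0.344% of all genes, 3 members at an unadjusted p under 0.05), 0 of 9 in MEL202 (0%, and 0 at an unadjusted p under 0.05), 1 of 7 in MP41 (2.59%) and 1 of 8 in the IDE196 set (0.266%), SOX10 in both cases. DESeq2 also called 0 in 92-1 and in MEL202.

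As a share of the summed per-kilobase level of 19 SOX genes, SOX10 fell and SOX4 rose with FHT-1015. SOX10 held 49.7% ± 2.4 (SD, n = 3) of the sum in 92-1 DMSO at 24 h and 1.75% ± 0.27 with FHT-1015, and SOX4 went from 35% ± 2.1 to 83.7% ± 0.98. In MEL202 at 24 h SOX10 went from 49.0% ± 3.5 to 1.06% ± 0.11 and SOX4 from 31.8% ± 3.2 to 81.0% ± 0.4. In MP41 SOX10 went from 78.4% ± 2.9 to 4.41% ± 0.33 and SOX4 from 11.5% ± 2.3 to 75.9% ± 2.0. The sum itself moved less: it was 309.8 ± 25.4 CPM per kilobase in DMSO and 347 ± 10.5 with FHT-1015 in 92-1, 333 ± 17.7 and 353 ± 12.1 in MEL202, and 391 ± 122 and 249 ± 16.5 in MP41. With IDE196 at 24 h SOX10 took 55.6% ± 2.5 against 44.5% ± 3.0 in DMSO, and SOX4 28.5% ± 2.2 against 40.9% ± 3.3. These shares are descriptions of the levels already tested.

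Of 20 genes that textbooks place under or beside SOX10 (pigment genes such as TYR and DCT, the myelin gene MBP, the receptors ERBB3, EDNRB and RET, and the partners PAX3 and TFAP2A), FHT-1015 lowered most by 24 h. In 92-1, 15 of 18 tested were lower and 1 higher at 24 h (60.6% of all genes called), with a median log2 change of -1.60 where the median of all genes was 0.00. At 4 h, when SOX10 had already fallen, 8 of 18 were lower and 1 higher (median -0.33), beside 29.5% of all genes called. In MEL202, 0 of 19 were called at 4 h by edgeR (3 at an unadjusted p under 0.05, median -0.09, 0.679% of all genes called) and 13 of 19, all lower, at 24 h (median -1.19, 18.8% of all genes). MP41 had 0 of 19 at 4 h (4 at an unadjusted p under 0.05, median -0.02, 0.225% of all genes) and 13 lower and 1 higher at 24 h (median -1.42, 36.1% of all genes). The melanocytic markers, 6 of which are also in this list, summed to 4915 to 5377 CPM with FHT-1015 and 18795 to 22915 CPM in DMSO in 92-1 at 24 h.

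Pigment genes of that list were among those that changed at 24 h. In 92-1 with FHT-1015, DCT, a melanin synthesis enzyme, changed by -5.81 (SE 0.47), while CDH19, a neural crest cadherin, was higher by 1.09 (SE 0.10). In MEL202 MLANA, a melanosome protein, changed by -3.17 (SE 0.31). In MP41 DCT changed by -2.87 (SE 0.30) and MITF, the melanocyte master regulator, by -2.56 (SE 0.22), and TFAP2A was higher by 0.92 (SE 0.12). With IDE196 at 24 h, 9 of 18 were higher and 2 lower (median 0.24), a share called close to the 58.1% of all genes, with DCT (3.17, SE 0.34) among the higher and GPM6B, a membrane proteolipid (-2.89, SE 0.09), and TYR, tyrosinase (-0.36, SE 0.14), lower. MBP is also a marker of glia, and made up most of the summed level of the 4 glial markers in these FHT-1015 comparisons, so the sum mostly restates a gene of the list. At 24 h the sum was 49.5 to 57.2 CPM with FHT-1015 against 134 to 150 CPM in DMSO in 92-1, 17.2 to 19.4 against 56.6 to 62.0 in MEL202 and 40.8 to 48.2 against 205 to 289 in MP41, and MBP alone 42.6 to 49.2 against 122 to 148, 16.6 to 19.2 against 54.7 to 59.6 and 40.2 to 47.5 against 202 to 286 CPM. With IDE196, MBP was at 163 to 174 against 126 to 136 CPM. The part of glial markers in these changes was not tested. Whether these genes moved because of SOX10 was not tested.

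Of the cartilage genes that SOX9, SOX5 and SOX6 activate together in chondrocytes, more were called lower than higher with FHT-1015 at 24 h. At that time SOX9 was called higher in the 3 lines, SOX6 lower in 92-1 and MP41, and SOX5 higher in 92-1. Of 15 listed, 10 were tested in each line. At 24 h 6 were lower and 1 higher in 92-1 (median -0.83), 4 and 1 in MEL202 (median -0.56) and 5 and 1 in MP41 (median -0.55), against the 60.6%, 18.8% and 36.1% of all genes called, so that the share called in 92-1 was close to that of all genes. COL9A1, a collagen of cartilage, was lower in all 3, by -3.27 (SE 0.55), -1.67 (SE 0.44) and -2.22 (SE 0.25). The other named falls were of COL11A2 in 92-1 (-2.12, SE 0.14), ACAN, a proteoglycan gene, in MEL202 (-3.76, SE 0.79) and COL2A1 in MP41 (-2.45, SE 0.63). COL9A2 was higher in 92-1 (2.71, SE 0.33) and MEL202 (1.62, SE 0.40), and COL11A1 in MP41 (1.00, SE 0.13). At 4 h 3 of 10 were lower in 92-1, the share of all genes called being 29.5%, and 0 were called by edgeR in MEL202 and MP41 (0 at an unadjusted p under 0.05 in each, 0.679% and 0.225% of all genes called). With IDE196 at 24 h 7 of 11 were higher and 0 lower (median 1.22), where 58.1% of all genes were called and 28.7% were higher, with the largest called changes in ACAN (5.89, SE 0.19) and COL9A1 (3.16, SE 0.19). At 4 h IDE196 had raised 2 of 11, beside 16.2% of all genes called.

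**Figure D4:**
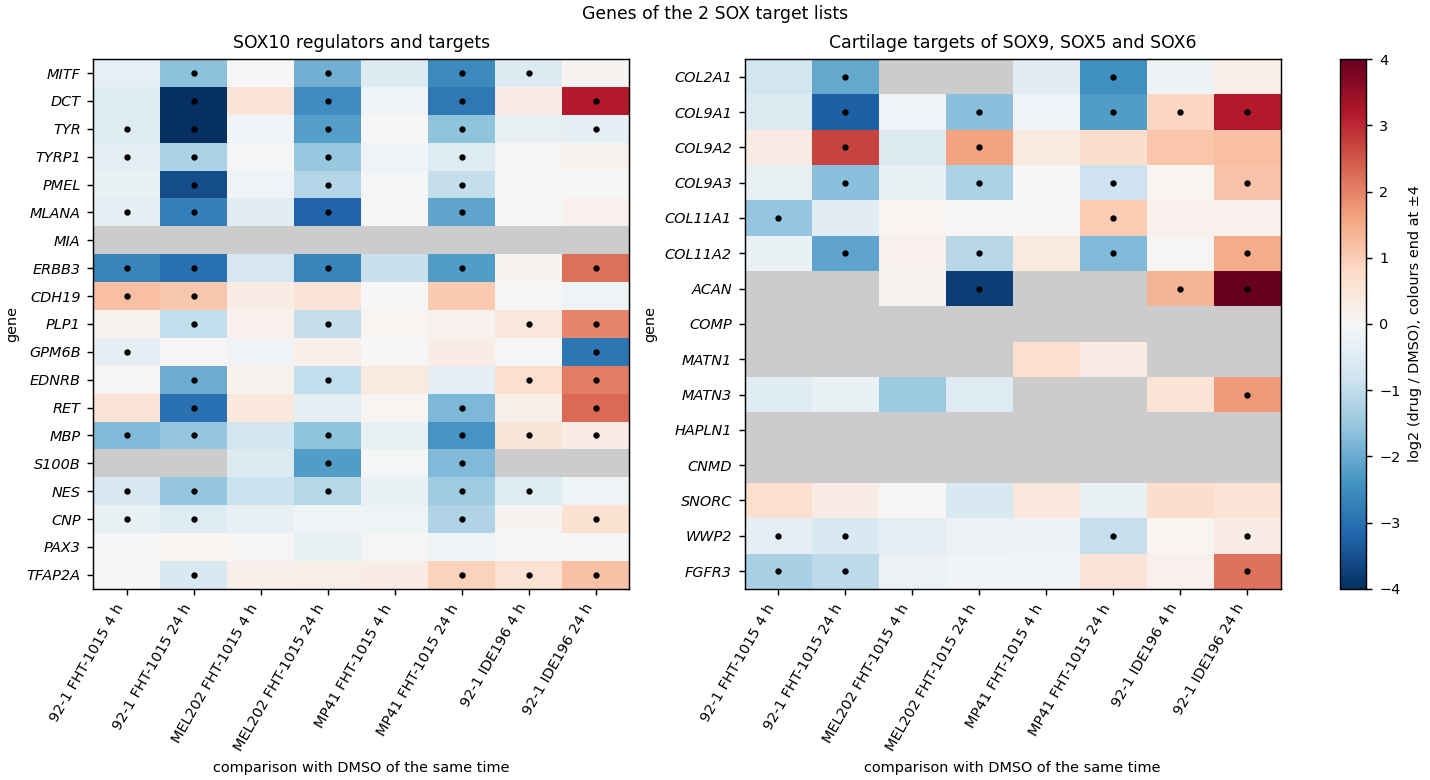
Log2 fold change at 4 h and 24 h in each experiment for 19 of the 20 genes under or beside SOX10 and 15 cartilage genes. Colour ends at -4 and 4, a dot marks an adjusted p under 0.05, and grey cells were not tested. With FHT-1015 most called cells are lower at 24 h, and with IDE196 at 24 h more are higher than lower.

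Fibroblast markers are given beside these lists because some are collagens. The 6 markers summed to 14.4 to 17.2 CPM with FHT-1015 against 3.82 to 4.98 CPM in DMSO in 92-1 at 24 h, to 35.5 to 43.4 against 6.34 to 7.88 CPM in MEL202, and to 30.7 to 39.3 against 27.7 to 43.3 CPM in MP41. In MEL202 most of the treated sum was 1 collagen gene, COL3A1, at 28.6 to 37.2 against 3.59 to 5.54 CPM. With IDE196 at 24 h the 6 markers summed to 13.1 to 22.5 against 7.97 to 11.1 CPM in DMSO, also separate. Their part in the changes of SOX9 and the cartilage genes was not tested.

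Exons of 4 members overlap those of another gene, and the counting did not use strand. On the opposite strand, SOX10 shares 89 exonic bases with POLR2F, 2.4% of its own, and SOX4 shares 168 with AL512380.2 (2.87%). SOX6 shares 219 on the opposite strand with C11orf58 and 89 on its own strand with MIR6073. SOX11 shares 74 with AC108025.2 on its own strand. At most 2.09% of the 50-base words of any member occur in exons of another gene, and 0 are shared between the 9 members. Of the words of SOX2, 50 of 2464 occur in exons of other genes, SOX1 and SOX21 of the same family among them.

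Genes whose pattern was most like each member were ranked by Pearson's r over the 16 group means of log2 CPM, among 10493 genes with a mean of at least 5 CPM. SOX10 was closest to PELI3 (r = 0.944), STAT5A (0.932), PGBD5 (0.931), CARD10 (0.929) and PHACTR1 (0.928). SOX4 was closest to CSRNP2 (0.931), RASAL2 (0.911) and ZNF627 (0.909), and SOX9 to SERINC5 (0.92), CACNB3 (0.899) and MOB3A (0.899). SOX5 was closest to CDCA7L (0.986), DSG2 (0.985) and WIPF3 (0.982), SOX6 to AP1S2 (0.969), TRIOBP (0.968) and NTRK2 (0.967), SOX8 to TSPAN9 (0.957), BAIAP2 (0.955) and METRNL (0.955), and SOX13 to TNFRSF1A (0.932), VSIG10 (0.925) and CAMK2N1 (0.924). The groups share lines and libraries, so these values describe likeness only.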

How the data were processed

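The authors deposited, for each of the 48 libraries, raw read counts per gene in the column layout of the STAR aligner, unnormalised, per the file headers and values. The build hg38 and the tool limma are named in the submitters' processing notes, and the aligner's version and the annotation are not given in the sources used here. Libraries were made from poly-A RNA with an unstranded kit, per the labels' protocols, and the unstranded column was used because the first strand held 49.73% to 50.11% of stranded reads. Ambiguous reads came to 9.35% to 11.8% and entered no gene, and 92 spike-in rows held 0 reads.

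Symbols, exons and positions came from GENCODE 29 (GRCh38) by unversioned identifier, which holds 58597 of 58870 genes, so positions may differ in detail from the annotation counted on. Each line and drug, with DMSO at both times, was fitted on its 12 libraries in R 4.3.3 with edgeR 4.0.16, using filterByExpr (minimum count 10, total 15), TMM factors, 4 groups and the quasi-likelihood F-test. It tested 15685, 15913, 15543 and 15437 genes. P-values were adjusted over all genes tested by Benjamini-Hochberg, and a gene under 0.05 was called. Differences among lines used the 36 FHT-1015 experiment libraries, differences between drugs the 24 of 92-1, and differences between lines in DMSO the 24 DMSO libraries. Log2 fold changes are edgeR's, and a standard error is the log2 fold change over the root of F. CPM used TMM over the 48 libraries, and per-kilobase values divide by merged exon length. The tests were also run on simulated counts that gave every gene the same spread and changed few genes, a simpler setting than these data.

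Alternatives were relative log expression normalisation, no filter, the sum of both stranded columns, 1 fit of all 48 libraries, only the 6 libraries compared, limma-voom (limma 3.58.1), the DESeq2 1.42.0 Wald test, a replicate block and leaving out each library. The alternatives for differences between times, lines and drugs were added after seeing the data. The members, the gene lists and the named list genes (the 2 largest called changes in each direction at 24 h) were chosen with earlier results of these data known. The values of 1 listed gene that this rule names are not reported here, and the list's counts and medians include it. Likeness used log2 of CPM plus 1.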

Additional observations from a re-analysis of the deposited data

Results flagged for a closer look

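Results were looked at again where an effect differed between lines or between times by a direct test in edgeR. The FHT-1015 effect differed among the 3 lines at 4 h for SOX10 (adjusted p = 1.89e-06) and SOX8 (adjusted p = 0.00876). The SOX10 fall was larger in 92-1 than in either other line, and the SOX8 fall was larger in 92-1 than in MP41. At 24 h it differed for SOX9 (adjusted p = 0.00296) and SOX4 (adjusted p = 0.0141), with the larger rises in MP41, and for SOX8 (adjusted p = 0.0267).

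The 24 h effect minus the 4 h effect, on the log2 scale, was called for 15 combinations of gene and experiment. With FHT-1015 it was 1.01 for SOX9, -0.99 for SOX6 and 0.72 for SOX4 in 92-1, then -2.40 for SOX10, 1.70 for SOX9 and 1.03 for SOX4 in MEL202, and -2.47 for SOX10, 2.35 for SOX9 and 1.30 for SOX4 in MP41. In those experiments SOX9 and SOX4 had the same sign in each line. With IDE196 in 92-1 it was 0.50 for SOX10, 1.03 for SOX9, 0.85 for SOX8, 0.53 for SOX5, 0.87 for SOX13 and 3.32 for SOX2. The SOX2 value rests on 0 to 19 reads a library and lost its call in 5 of the 12 fits that left out 1 library (without replicates 4 or 5 of DMSO at 4 h, 4 or 6 of DMSO at 24 h or 2 of IDE196 at 4 h: 2.79 to 3.19, adjusted p 0.0504 to 0.0754). In the fit of all 48 libraries the SOX10 value (0.55, adjusted p = 0.176) and the SOX5 value (0.58, adjusted p = 0.318) lost their calls. The SOX5 value also lost its call without replicate 4 of DMSO at 24 h or replicate 2 of IDE196 at 4 h (0.47 and 0.48, adjusted p 0.0515 and 0.0508).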

How the results depend on the processing

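Of 777 values of single SOX genes under an alternative, 745 kept direction and side of the threshold, 23 lost and 8 gained a call, and 1 reversed, SOX10 in DMSO between MP41 and 92-1 with the IDE196 DMSO set (-0.023). Of 2160 with 1 library left out, 2058 kept both, 99 lost and 3 gained a call. Same-numbered FHT-1015 and DMSO libraries deviated together at r over 0.1 in 10 of 18 pairs. The range was 0.06 to 0.301 in MP41, -0.143 to 0.353 in 92-1 and -0.513 to 0.713 in MEL202. The main fits did not take the numbers as pairs, a choice that these values do not settle. With a replicate block the members called stayed at 4 and 8 in 92-1, 2 and 5 in MEL202 and 2 and 5 in MP41 (4 and 24 h), and the IDE196 arms share no numbers. The fit of all 48 libraries, which pools the spread of the lines, called 2089 genes in 92-1 at 4 h with FHT-1015 (4631 in the main analysis), 842 in MEL202 at 4 h (108), 5733 at 24 h (2984), 94 in MP41 at 4 h (35) and 895 with IDE196 at 4 h (2498). It called 4 members in MEL202 at 4 h (2), 0 with IDE196 at 4 h (3 by edgeR on the 12 libraries, where 3 had an unadjusted p under 0.05), and for DMSO at 24 against 4 h 3 in MP41 (1) and 0 in the IDE196 set (1). Without a filter, 207 genes were called in MEL202 and 122 in MP41 at 4 h, and 1 member for DMSO at 24 against 4 h in 92-1 (0). DESeq2 called 316 and 143 genes at 4 h in MEL202 and MP41 and 2 members for DMSO in MP41. The 6 compared libraries alone gave 0 genes in MEL202 at 4 h and 6256 at 24 h, 346 in MP41 at 4 h and 3352 at 24 h (5617), and 0 members in MEL202 at 4 h, where 5 of 9 had an unadjusted p under 0.05 in the fit of 12. Leaving out 1 library gave 28 to 137 genes in MEL202 at 4 h, 1810 to 4030 at 24 h and 7 to 141 in MP41 at 4 h, and 1 to 3 members in MEL202, 1 to 2 in MP41 and 1 to 3 with IDE196 at 4 h, 0 to 3 and 0 to 1 for DMSO in MP41 and the IDE196 set, and 2 to 5 among lines at 24 h. The causes were not tested. Depth limits SOX2, at 0 to 31 reads a library, and SOX11 outside MEL202, at no more than 3 reads. With the longest transcript as length, per-kilobase levels of SOX10, SOX6, SOX5 and SOX13 moved up, SOX13 passed SOX9 in both 92-1 sets, and SOX10 passed SOX4 and SOX5 passed SOX8 in the IDE196 set.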

Other observations

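Of 10 further SOX genes, 3 to 5 were tested in each experiment. SOX12, the third SoxC gene, held 51.3 to 207 CPM in the 48 libraries. It was higher with FHT-1015 in 92-1 by 0.54 (SE 0.19, adjusted p = 0.0446) at 4 h and 0.99 (SE 0.19, adjusted p = 0.000342) at 24 h, with 0.61 (adjusted p = 0.0825) in MEL202 and 0.52 (adjusted p = 0.0613) in MP41 at 24 h. With IDE196 at 24 h it was higher by 0.36 (SE 0.09, adjusted p = 0.00261). SOX7, a SoxF gene of vessels, was lower with FHT-1015 in 92-1 at 24 h (-1.50, SE 0.39, adjusted p = 0.0038) at a level of at most 1.65 CPM. SOX18, another SoxF gene, was lower with IDE196 at 4 h (-0.70, SE 0.20, adjusted p = 0.0231). SOX1 reached 12.8 CPM, SOX3 had 0 reads in every library, and SOX14 and SOX17 had at most 1 read.

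Of the genes beside 2 members, POLR2F, which overlaps SOX10 on the other strand, changed by -0.67 (SE 0.12, adjusted p = 0.000175) in 92-1 with FHT-1015 at 24 h and by -1.13 (SE 0.15, adjusted p = 4.07e-06) with IDE196, where SOX10 was higher. CASC15, a long noncoding RNA beside SOX4, was higher with IDE196 at 24 h by 2.78 (SE 0.34, adjusted p = 2.06e-06) and not called with FHT-1015 in 92-1, where SOX4 rose (-0.03, SE 0.32, adjusted p = 0.952).

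GFAP, a glial filament gene, held 10.1 to 12.1 CPM in 5 of the 12 libraries of the 92-1 FHT-1015 experiment (replicate 3 of DMSO at 4 h, replicates 2 and 3 of DMSO at 24 h, replicates 1 and 2 of FHT-1015 at 24 h) and at most 6 reads in the other 7. The split ran across drug and time.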
